A study of Mus musculus with 25 samples.

Results

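Laser capture RNA-seq libraries of the anterior E14.5 palate were grouped into an oral and lateral side (3 oral and 3 lateral libraries) and a medial and nasal side (3 medial and 4 nasal libraries), and genes were sought for which both compartments of a side agreed. These 13 libraries are those that the sample labels name as anterior, out of 25 in the series, the other 12 being posterior. By label, all came from wild type CD1 mouse embryos at E14.5 and differ in the compartment captured. At that stage the palatal shelves have recently met in the midline. Some alignment names carry other words, as given below. Medial and lateral are the inner and outer parts of the shelves, while oral and nasal are their lower and upper parts, so the medial-lateral and oral-nasal captures are separate cuts of the same tissue. Each oral capture therefore holds medial as well as lateral tissue, and the 4 compartments are not 4 separate cell populations. Values are RPKM, read counts scaled to transcript length and library size. A difference is given as the mean of the oral and lateral compartments minus the mean of the medial and nasal compartments, on the log2(RPKM + 0.1) scale, and is negative for genes higher in medial and nasal.

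The palatal shelves are outgrowths of neural crest mesenchyme covered by epithelium, which turn from vertical to horizontal above the tongue and fuse. The oral epithelium carries the rugae, ridges that secrete Sonic hedgehog, and the mesenchyme beneath them answers with the Hedgehog receptor and target Ptch1, the transcription factors Gli1, Osr and Foxf, and Fgf10, which signals back to the epithelium. Some cells on the nasal side will ossify into the palatal processes, and the midline lies close to the nasal septum, which is cartilage. Runx2 is the master regulator of bone formation and Sox9 that of cartilage.

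The palatal mesenchyme markers were abundant in every library. Their summed RPKM ranged from 958 to 1388 over the 13 libraries, and 0 of the 10 tested members passed the test. The depth behind the RPKM values, worked out from the steps between low values, was 1.64 M to 6.56 M reads. Counting error alone at that depth gave a coefficient of variation of 12.4% to 24.7% for a transcript of 2000 bases at 5 RPKM. The paper reports a higher average read number per sample, and the removal of multi-aligned and duplicate reads. How far that removal accounts for the gap was not tested. Some libraries stood apart. Oral replicate 1 had the fewest reads and correlated at 0.629 and 0.728 with the other oral libraries, across genes. Nasal replicate 1 had 20605 genes above 0 and correlated at 0.770 to 0.846 with the other nasal libraries. The range for nasal replicate 4 was alike, at 0.770 to 0.835. The sequencing run, read from the alignment names, was shared by oral and nasal (each had libraries of run0175, run0297 and run0324), whereas the medial libraries were all of run0366 and the lateral libraries of run0341 and run0391. For lateral against medial, run and compartment cannot be told apart. The alignment names of oral replicate 3 and nasal replicate 4 carry the words Tgfbr2_WT, while their labels give CD1.

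A gene was tested if 3 or more of the 13 libraries reached 5 RPKM. Of the 11235 such genes, 125 (1.11%) were called at a limma adjusted p under 0.05. These were 63 higher in oral and lateral (0.561%) and 62 higher in medial and nasal (0.552%). Both compartments agreed for 61 of the 63 (0.543% of genes tested) and for all 62 (0.552%), meaning that the oral and lateral means both lay above, or both below, the medial and nasal means. The exceptions were Mmp16 and Fam69c, with differences of 0.54 and 2.77, whose nasal mean exceeded the oral mean. Agreement was read from the same compartment means that the test used to choose the genes, so its counts are a description. Among the agreeing genes the median size of the difference was 1.23 in the oral and lateral direction (0.58 to 3.50) and 1.36 in the medial and nasal direction (0.51 to 4.03), against a median of -0.02 over all genes tested. For 24 of the 61 and 34 of the 62, the 6 oral and lateral libraries did not overlap the 7 medial and nasal ones. Over all genes tested the share without overlap was 0.356% and 0.516% in the 2 directions.

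**Figure D1:**
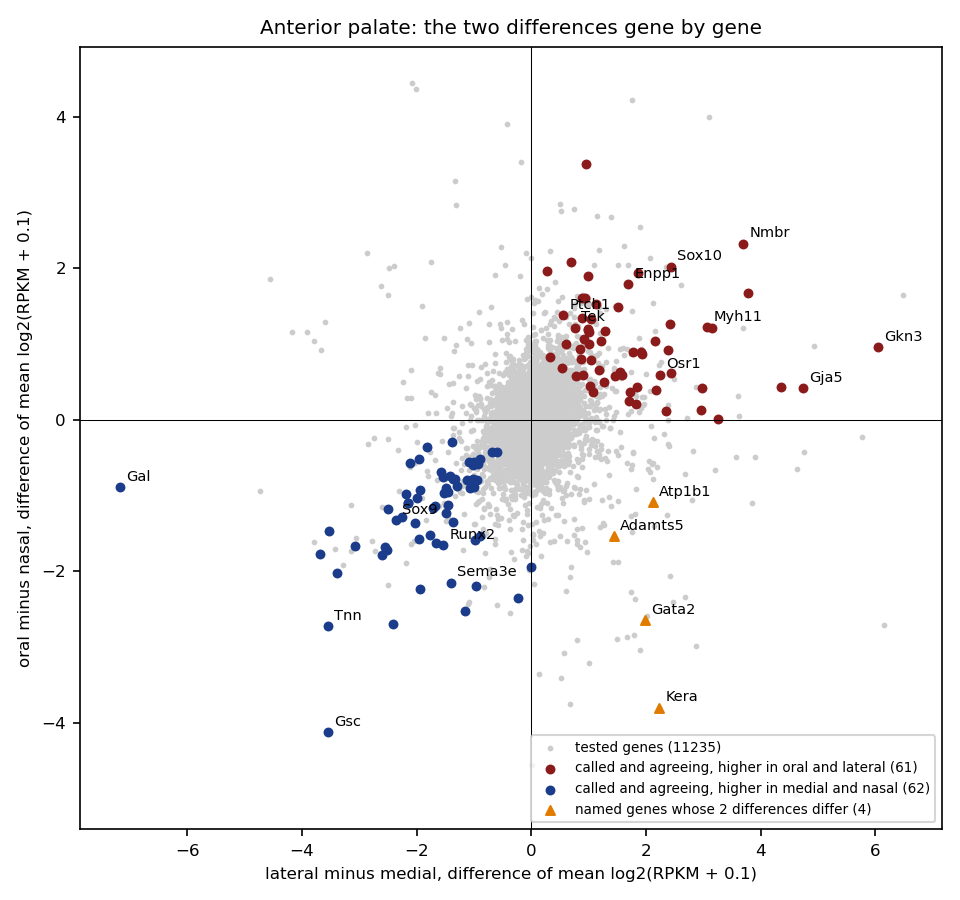
Each point is a gene, with lateral minus medial on the x axis and oral minus nasal on the y axis, both as differences of mean log2(RPKM + 0.1). Red points (61) and blue points (62) are the agreeing genes and lie in the upper right and lower left quadrants, and orange triangles are 4 named genes with opposite signs on the 2 axes.

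The agreeing genes differed more along lateral-medial than along oral-nasal. The median lateral minus medial difference was 1.47 in the oral and lateral set and -1.54 in the medial and nasal set, and the median oral minus nasal difference was 0.94 and -1.11. The lateral-medial difference was the larger for 40 of 61 and 51 of 62 genes. Both pairs had an unadjusted p under 0.05 for 42 and 54 of them. Over all genes tested the medians were -0.02 for lateral minus medial and -0.01 for oral minus nasal. The genes were chosen by the mean of these 2 differences, so the sizes and counts are a description. Lateral and medial share no run, so the larger size along lateral-medial cannot be told apart from run. By the study's thresholds, a 2-fold change with a p under 0.05 (taken here as unadjusted), applied to both pairs together, 21 genes were higher in oral and lateral (0.187%) and 34 in medial and nasal (0.303%). These counts rest on the fit chosen. With the run as a covariate in all 25 libraries, 0 genes were called in the oral and lateral direction and 2 in the other (Tnn and Slc24a2). All 123 agreeing genes kept their sign, but that fit includes the libraries that chose them, so this is a description. Anterior lateral replicates 1 and 2 were the only libraries of run0341, so the anterior lateral mean there rests on lateral replicate 3. The fit therefore cannot decide whether run underlies the differences. Calls in the oral and lateral direction numbered 164 without oral replicate 1, 25 without lateral replicate 3, and 26 to 41 without lateral replicate 1 or 2, medial replicate 1 or 2, or oral replicate 2. In the other direction they numbered 34 to 40 without medial replicate 1 or 2 or lateral replicate 2 or 3.

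Gsc (goosecoid, gene 14836, chr12:105709419-105711446 in mm9), a homeodomain transcription factor of the head mesenchyme, had the largest difference among genes without overlap. Its RPKM was 0, 2.69 and 0.650 in oral, 2.14, 0.851 and 1.65 in lateral, 24.8, 19.999 and 11.7 in medial and 7.88, 16.2, 14.7 and 5.79 in nasal. Every medial and nasal library was above every oral and lateral library, with a difference of -3.83 (SE 0.63, limma adjusted p = 0.0112). No fold is given, since oral replicate 1 is listed at 0.

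The promoter windows of Gsc and Nmbr, the genes with the largest differences without overlap on the 2 sides, are shown from RefSeq on GRCm38.p6, a later build than the mm9 of the expression table. Each window runs from 250 bases before to 50 after the start of the gene, 5′ to 3′ on the strand of the gene. Capitals mark TATAAA in Gsc and the reverse complement of TGTGGT, the RUNX motif, in Nmbr. The windows lie at chr12:104473187-104473486, minus strand, and chr10:14759697-14759996, plus strand.
Gsc: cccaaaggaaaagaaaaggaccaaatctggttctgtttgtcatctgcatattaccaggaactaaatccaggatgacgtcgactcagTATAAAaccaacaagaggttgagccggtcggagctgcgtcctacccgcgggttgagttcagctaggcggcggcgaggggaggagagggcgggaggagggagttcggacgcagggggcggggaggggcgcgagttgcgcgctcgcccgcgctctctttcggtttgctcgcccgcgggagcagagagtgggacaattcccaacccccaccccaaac
Nmbr: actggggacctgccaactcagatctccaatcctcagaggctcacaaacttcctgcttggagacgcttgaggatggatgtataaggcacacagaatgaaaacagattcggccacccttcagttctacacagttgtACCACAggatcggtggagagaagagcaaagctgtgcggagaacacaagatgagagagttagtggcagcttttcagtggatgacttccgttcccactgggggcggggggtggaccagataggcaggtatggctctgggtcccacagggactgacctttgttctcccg
TATAAA on either strand occurs in a window of 15.7% of all 27025 genes with windows of this length, and TGTGGT in a window of 18.9%. A gene can have several windows and was counted if any held the letters. Of the 20 genes with the largest non-overlapping differences, 13 had a window (7 oral and lateral, 6 medial and nasal). TATAAA was found in 0 of 7 and 2 of 6 of them and TGTGGT in 3 of 7 and 0 of 6. The SOX letters ACAATG were in 1 of 7 and 1 of 6, against 14.3% of all genes. Neither the GLI letters GACCACCCA nor the palindromic EBF motif was in any, and 0.289% and 1.06% of all genes hold them. No test was made on these counts.

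Tnn, which encodes tenascin-W, a matrix glycoprotein found around forming bone (gene 329278, chr1:162015163-162083706 in mm9), had the smallest adjusted p of all genes. Its RPKM was 6.78, 4.44 and 3.88 in oral, 4.18, 3.86 and 3.66 in lateral, 52.8, 43.0 and 44.8 in medial and 26.0, 40.7, 42.9 and 25.7 in nasal. The mean was 39.4 ± 10.03 (SD, n = 7) in medial and nasal against 4.46 ± 1.17 (SD, n = 6) in oral and lateral, an 8.80-fold difference on the log2(RPKM + 0.1) scale (difference -3.14, SE 0.18, limma adjusted p = 7.97e-06). Tnn was called in each of the 13 leave-one-out fits.

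Sox9, the regulator of cartilage, had 12.1, 19.3 and 34.4 RPKM in oral, 10.6, 11.7 and 9.64 in lateral, 73.8, 45.5 and 48.6 in medial and 35.6, 70.7, 53.3 and 48.0 in nasal (difference -1.84, SE 0.24, limma adjusted p = 0.00383). The highest oral library lay just under the lowest nasal library, and no library overlapped. The cartilage list lay on the same side. All 10 tested of 18 genes were lower in oral and lateral, with a median difference of -1.36. The test was passed by 4, namely Sox9, Acan, Col9a3 and Sox5, the last called in 3 of 13 leave-one-out fits. Sox5 here is the entry at chr6:143777067-143779600 in mm9, the most abundant tested for its symbol. Under each alternative run, scalings included, all tested members stayed lower, and 0 passed with the run as a covariate. Acan, the aggrecan core protein of cartilage matrix, was at 0.493 to 1.51 RPKM in oral and lateral and 1.07 to 7.74 in medial and nasal, so that nasal replicate 4 (1.07) lay within the other side (difference -2.12, SE 0.32, adjusted p = 0.0073). Col9a3, a chain of collagen IX, had 3.33 to 6.02 RPKM against 7.34 to 20.8, without overlap (difference -1.44, SE 0.23, adjusted p = 0.00923). Col2a1, the main cartilage collagen, and Matn4, a matrilin, had differences of -1.17 and -2.60 but did not pass (adjusted p = 0.0688 and 0.0528). In a bulk capture, fewer cells of a type and less RNA per cell cannot be told apart.

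Of the osteoblast genes, 14 of 23 were tested, 10 were lower and 4 higher in oral and lateral (median -0.26), and 2 passed, Tnn and Runx2. The medians of the list were 0.02 for lateral minus medial and -0.44 for oral minus nasal. Runx2 had 17.95, 15.03 and 12.4 RPKM in oral, 18.1, 14.1 and 11.6 in lateral, 56.3, 43.3 and 30.2 in medial and 34.3, 63.1, 50.3 and 46.4 in nasal (difference -1.60, SE 0.20, limma adjusted p = 0.00269). Its lateral-medial and oral-nasal differences were alike in size, -1.54 and -1.66. Dlx5, a homeobox regulator of bone, did not agree between the cuts. It was 9.86 to 28.5 RPKM in nasal and 0.434 to 4.65 in oral (-3.36) but 3.55 to 8.42 in lateral and 3.92 to 6.07 in medial (0.14), and its overall difference of -1.61 did not pass (adjusted p = 0.164). Mkx (Mohawk), a homeobox regulator of tendon, was higher in medial and nasal without overlap, at 16.9 to 39.7 against 5.91 to 12.7 RPKM (difference -1.64, SE 0.24, adjusted p = 0.00693).

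Of the BMP list, 21 of 27 genes were tested, with 3 lower in oral and lateral, 0 higher, and a median of -0.31. They included a ligand and a target. Bmp2, the ligand, had 14.4 to 20.9 RPKM in oral and lateral and 27.3 to 36.1 in medial and nasal (difference -0.87, SE 0.13, limma adjusted p = 0.00586). Its sides did not overlap. Id1, a direct BMP target, was at 33.5 to 53.7 against 49.7 to 117 RPKM and passed more narrowly (difference -0.76, SE 0.15, adjusted p = 0.0327), in 3 of 13 leave-one-out fits.

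Of 32 axon guidance genes tested of 36, 5 were called higher in medial and nasal and 1 in oral and lateral, with 16 higher, 16 lower and a median of 0.00. Sema3e was at 9.95, 7.22 and 6.29 RPKM in oral, 11.3, 9.82 and 8.59 in lateral, 27.9, 33.6 and 19.5 in medial and 27.0, 42.4, 30.9 and 39.7 in nasal (difference -1.78, SE 0.18, limma adjusted p = 0.000678). Sema3c (2.92 to 5.89 against 6.85 to 25.1 RPKM, difference -1.77) and Sema3a (11.5 to 19.9 against 26.5 to 50.7, difference -1.28, for the more abundant of its entries) did not overlap either. Unc5c, a netrin receptor, had 13.6 to 18.8 RPKM in oral and lateral and 30.1 to 49.7 in medial and nasal (difference -1.20, SE 0.12, adjusted p = 0.000662). Its relative Unc5d and the semaphorin co-receptor Nrp1 fell outside the naming rule and are given after their values were seen, with differences of -0.97 and 0.75 (adjusted p = 0.0359 and 0.0175). Nrp1 was thus higher in oral and lateral, opposite to Sema3a, Sema3c and Sema3e.

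The rest of the leading medial and nasal genes without overlap were Slc24a2, a sodium, calcium and potassium exchanger (difference -2.73, adjusted p = 0.000267), Hs3st3b1, a heparan sulfate sulfotransferase (-2.37, 0.00383), and A2m, a protease inhibitor of the macroglobulin family (-1.77, 0.0146). The sides of Hs3st3b1 lay close, with 2.37 RPKM in nasal replicate 4 against 2.18 in oral replicate 3, as did those of A2m, with 3.18 in nasal replicate 4 against 2.83. Ctgf, a matricellular CCN protein, was at 9.35 to 18.04 RPKM in oral and lateral and 17.5 to 47.5 in medial and nasal (difference -1.52, SE 0.20, limma adjusted p = 0.00327), so that only nasal replicate 4 lay within the range of the other side.

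**Figure D2:**
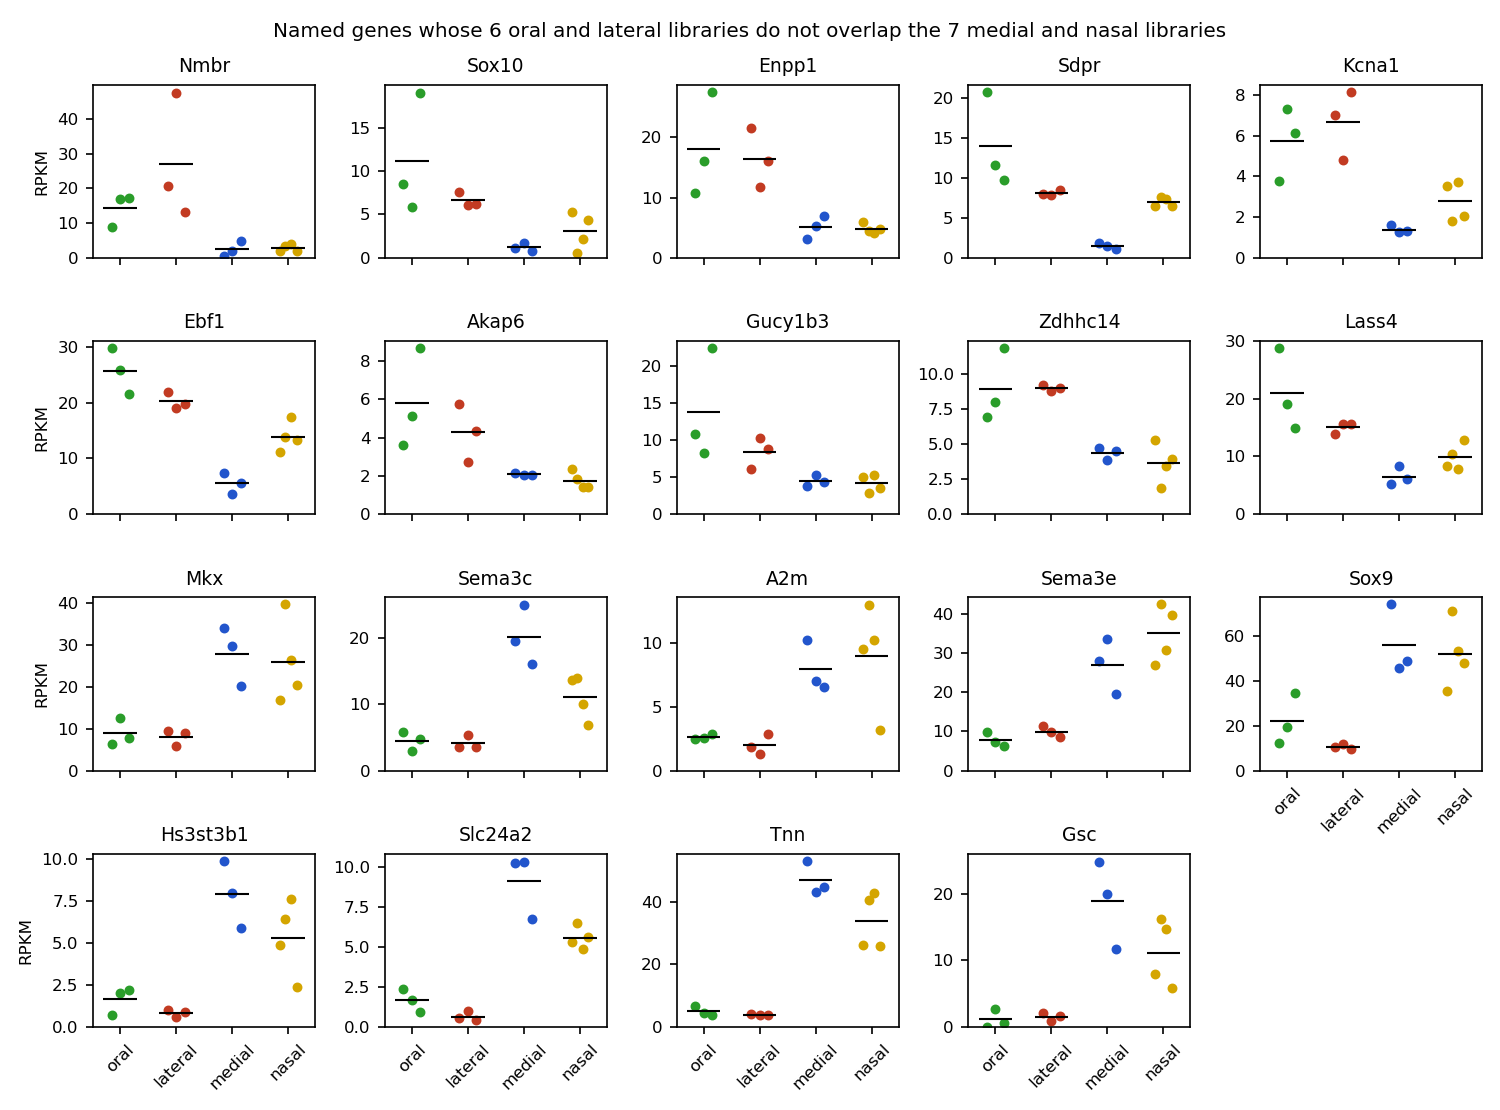
RPKM of 19 of the 20 genes with the largest differences among the called, agreeing genes whose sides do not overlap, with 1 point per library and a bar at the compartment mean. Each panel has its own scale from 0. The upper 10 genes are higher in oral and lateral, such as Nmbr at 8.95 to 47.5 against 0.487 to 4.96, and the other 9 in medial and nasal, such as Tnn at 25.7 to 52.8 against 3.66 to 6.78.

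Keratins and a neuropeptide were also higher in medial and nasal. Of the epithelium and periderm markers, 14 of 20 were tested and 2 passed, Krt14 (difference -1.62, limma adjusted p = 0.0086) and Krt17 (-1.84, 0.0123), both epithelial keratins. The summed RPKM of the whole list was 69.6 to 148 in oral, 64.1 to 135 in lateral, 142 to 222 in medial and 121 to 206 in nasal. Of the 14 tested markers, 3 were higher and 11 lower in oral and lateral. Epcam, another marker of the list, had a difference of -0.23 (adjusted p = 1.00). With the run as a covariate the list's median turned from -0.44 to 0.31. Galanin (Gal) had 30.6, 13.5 and 47.9 RPKM in medial, 0, 0 and 0.555 in lateral, 2.62, 0.820 and 2.82 in oral and 4.14, 6.71, 4.44 and 1.17 in nasal. It was mainly a medial gene, with differences of -7.18 for lateral-medial and -0.89 for oral-nasal, and it overlapped between oral and nasal. The part of epithelial or nerve cells in these results was not tested.

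In the oral and lateral direction, Nmbr, the receptor for the peptide neuromedin B (gene 18101, chr10:14480095-14490362 in mm9), had 8.95, 16.9 and 17.2 RPKM in oral, 20.5, 47.5 and 13.2 in lateral, 0.487, 1.94 and 4.96 in medial and 1.94, 3.30, 3.96 and 1.96 in nasal. Every oral and lateral library exceeded every medial and nasal library, 8.06-fold on the log2(RPKM + 0.1) scale (difference 3.01, SE 0.47, limma adjusted p = 0.00883). Enpp1, which makes the mineralization inhibitor pyrophosphate, had 10.7, 16.0 and 27.5 RPKM in oral, 21.6, 11.8 and 16.1 in lateral, 3.17, 5.27 and 6.88 in medial and 5.99, 4.40, 4.11 and 4.77 in nasal (difference 1.74, SE 0.25, adjusted p = 0.00586). The 2 cuts gave like sizes for Enpp1, 1.69 and 1.79.

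Osr1, an odd-skipped transcription factor of the palate mesenchyme, was the member called among 12 tested of 14 oral-side transcription factors. Its RPKM was 78.7, 98.2 and 96.7 in oral, 98.4, 113 and 114 in lateral, 23.9, 22.6 and 22.2 in medial and 85.6, 62.5, 59.1 and 40.9 in nasal (list median 0.31, Osr1 difference 1.42, SE 0.16, limma adjusted p = 0.00193). Medial stood low against the other 3 compartments, and nasal replicate 1 overlapped oral, so the lateral-medial difference (2.24) was larger than the oral-nasal one (0.60). Its relative Osr2 had 41.6 to 112 RPKM in oral and lateral and 34.4 to 61.7 in medial and nasal, and did not pass (difference 0.68, adjusted p = 0.36). Foxf2 did not pass either (0.39, adjusted p = 0.944), with 28.2 to 32.5 RPKM in nasal replicates 2 to 4, 80.2 in nasal replicate 1 and 49.0 to 74.8 in oral. Ebf1, an early B-cell factor also used by mesenchyme, had 19.1 to 29.8 RPKM in oral and lateral and 3.54 to 17.4 in medial and nasal, without overlap (difference 1.40, SE 0.18, adjusted p = 0.00327).

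The Hedgehog list had 10 of 14 genes tested and 1 called, Ptch1. Ptch1, receptor and target of the pathway, had 64.7, 102 and 115 RPKM in oral, 96.3, 94.9 and 90.4 in lateral, 56.1, 56.8 and 81.5 in medial and 33.2, 26.2, 36.0 and 46.6 in nasal (difference 0.97, SE 0.18, limma adjusted p = 0.0229). Only oral replicate 1 lay within the medial range, and the call held in 5 of 13 leave-one-out fits. Gli1, a transcription factor and target, had 5.46, 21.0 and 24.2 RPKM in oral, 18.1, 20.2 and 20.3 in lateral, 10.5, 8.14 and 16.4 in medial and 3.43, 3.19, 3.98 and 9.15 in nasal. Its difference of 1.21 did not pass (adjusted p = 0.217), and without oral replicate 1 the adjusted p was 0.0128. Hhip, a decoy receptor and target, behaved likewise at 0.85 (adjusted p = 0.0677, and 0.0279 without that library). The transducers did not pass, with differences of -0.04 for Smo, -0.17 for Gli3 and -0.07 for Gli2, and the median of the list was -0.05. The ligand Shh was below the expression minimum, at 15.4 RPKM in lateral replicate 3 and at most 0.686 in the other 12 libraries.

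Fgf10, the mesenchymal growth factor, was at 15.004, 8.03 and 5.74 RPKM in oral, 6.53, 3.83 and 4.87 in lateral, 1.74, 1.27 and 0.472 in medial and 5.06, 2.46, 2.42 and 7.45 in nasal. The difference of 1.67 (SE 0.36) fell just short of the threshold (limma adjusted p = 0.0528), and nasal replicate 4 overlapped both oral and lateral. None of the 15 FGF genes tested of 22 was called, with a median of 0.35, and 1 was called without oral replicate 1. The FGF medians were 0.52 for lateral minus medial and -0.01 for oral minus nasal. Agtr2, the type 2 angiotensin receptor, was high throughout at 86.0 to 294 RPKM, with a difference of 0.26 (adjusted p = 1.00). Aldh1a2, which makes retinoic acid, was the retinoid gene called among 12 tested of 16 (median 0.12). It had 10.5 to 20.3 RPKM in oral and lateral, 0.713 to 1.62 in medial and 3.73 to 11.3 in nasal (difference 2.18, SE 0.30, adjusted p = 0.00499), so nasal overlapped the oral and lateral side while medial did not. Without oral replicate 1 there were 4 calls in the retinoid list.

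Of the Wnt list, 19 of 32 genes were tested (median -0.15) and 1 was called, the ligand Wnt2 (difference 1.02, limma adjusted p = 0.0105), which was low in medial (2.17 to 2.62 RPKM) and of like level in oral (8.12 to 11.2), lateral (7.12 to 10.05) and nasal (5.35 to 9.48). The Wnt medians were 0.04 for lateral minus medial and -0.39 for oral minus nasal. Wisp1, a CCN protein, was the matricellular gene higher in oral and lateral (1.09, adjusted p = 0.0203), against Tnn and Ctgf in the other direction among 20 tested of 25 (median -0.33).

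Of the endothelial markers, 2 of 13 tested of 14 passed the test, Tek and Gja5, both higher in oral and lateral. All 13 had a positive difference, with a median of 0.75. Tek, the angiopoietin receptor, had 21.1, 21.3 and 14.8 RPKM in oral, 14.2, 16.6 and 19.6 in lateral, 8.23, 11.3 and 10.1 in medial and 8.89, 8.07, 7.72 and 7.47 in nasal, without overlap (difference 0.99, SE 0.14, limma adjusted p = 0.00556). Gja5, the arterial gap junction protein connexin 40, was at 0.779 to 1.93 RPKM in medial and 6.10 to 42.4 in the other compartments, so its difference of 2.58 (adjusted p = 0.00778) came from lateral-medial (4.74) more than oral-nasal (0.42). The defining markers Pecam1 and Cdh5 had differences of 0.58 and 0.54 and did not pass (adjusted p = 0.342 and 0.457). The summed RPKM of the list was 213 to 371 in oral, 292 to 326 in lateral, 185 to 216 in medial and 145 to 270 in nasal. All 13 stayed positive under each alternative run, 7 were called without oral replicate 1 and 0 with the run as a covariate. Of the smooth muscle and pericyte genes, 9 of 10 tested of 14 were positive (7 of 10 without oral replicate 3), with a median of 0.79 and calls for Myh11 (2.15, adjusted p = 0.00923) and Actg2 (2.39, adjusted p = 0.0259, called in 6 of 13 leave-one-out fits). Their share in the other oral and lateral differences was not tested.

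**Figure D3:**
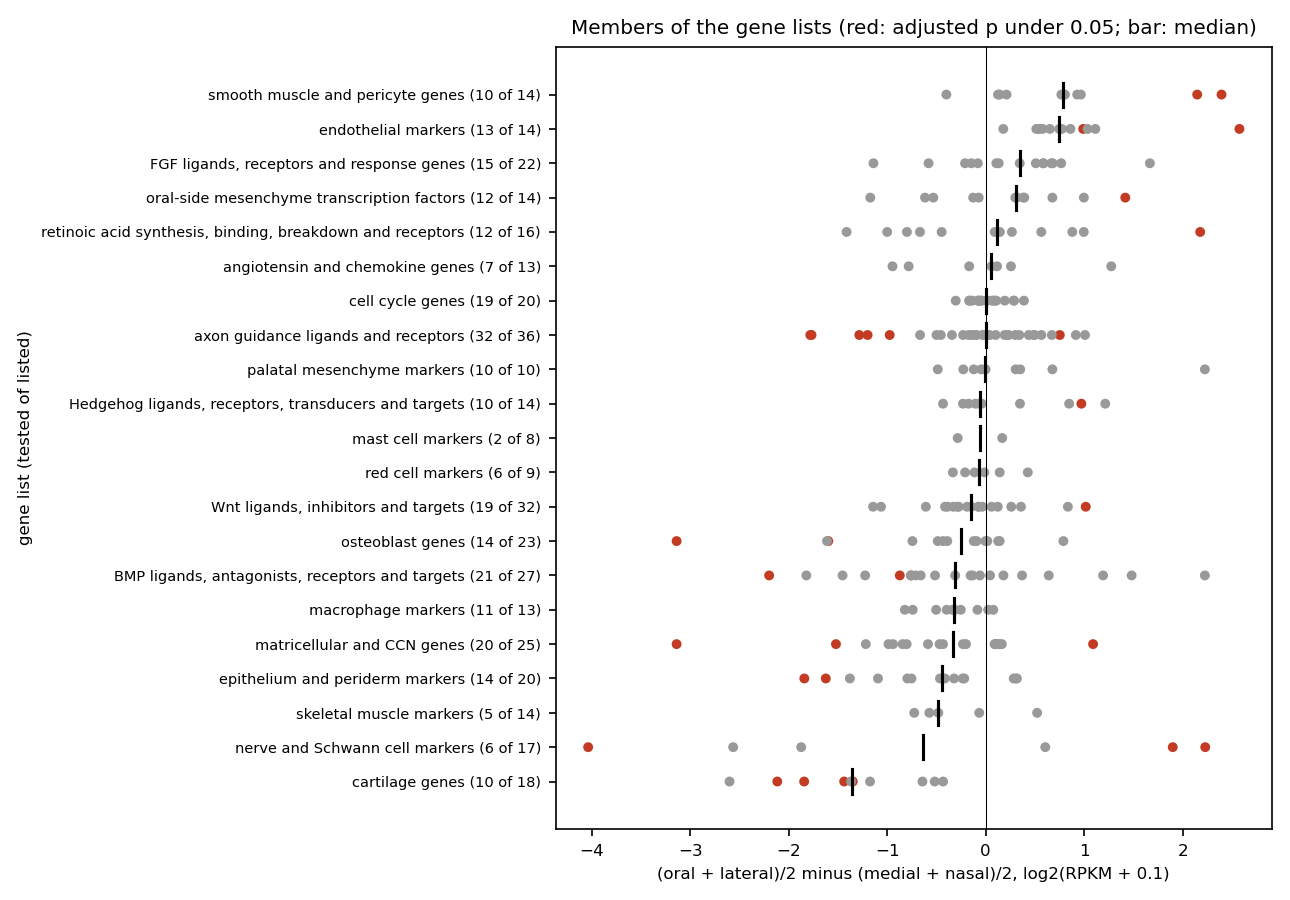
Each row is a gene list (with the number tested of those in the table), each point a tested gene, placed by its oral and lateral minus medial and nasal difference on the log2(RPKM + 0.1) scale. Red points have an adjusted p under 0.05 and black bars are list medians, from 0.79 for smooth muscle and pericyte genes and 0.75 for endothelial markers to -1.36 for cartilage genes.

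A pair of glial genes, Sox10 and Fabp7, passed the test in the oral and lateral direction. Sox10, a regulator of neural crest and Schwann cells, had 8.49, 5.88 and 19.1 RPKM in oral, 7.62, 6.10 and 6.26 in lateral, 1.12, 1.68 and 0.791 in medial and 5.25, 0.573, 2.11 and 4.41 in nasal (difference 2.23, SE 0.46, limma adjusted p = 0.0389, called in 5 of 13 leave-one-out fits). Fabp7, a fatty acid binding protein of glia, had 10.4 to 32.2 against 2.40 to 13.2 RPKM (1.90, adjusted p = 0.0406, called in 4 of 13). Of the 17 nerve and Schwann markers 6 were tested (median -0.63), with these 2 called in the oral and lateral direction and Gal in the other.

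The other leading oral and lateral genes without overlap were Sdpr, a coat protein of caveolae (difference 1.66, limma adjusted p = 0.00153), the potassium channel Kcna1 (1.60, 0.00557), the kinase anchor Akap6 (1.28, 0.0187), Gucy1b3, a subunit of the nitric oxide receptor guanylate cyclase (1.25, 0.0338), the palmitoyltransferase Zdhhc14 (1.18, 0.0215) and the ceramide synthase Lass4 (1.14, 0.0123). Gucy1a3, the partner subunit of Gucy1b3, was also among the 61 agreeing genes, at 1.23 (adjusted p = 0.028), and is named after its value was seen. Akap6, Gucy1b3 and Zdhhc14 were called in 6, 6 and 7 of the 13 leave-one-out fits and the other 3 in all 13. In lists not yet described, 0 genes were called among 19 cell cycle genes tested (median 0.01), 7 angiotensin and chemokine genes (0.06), 11 macrophage markers (-0.32), 6 red cell markers (-0.06), 2 mast cell markers (-0.06) and 5 skeletal muscle markers (-0.48). For some of these lists the cuts went opposite ways. Lateral minus medial and oral minus nasal medians were -1.01 and 0.34 for skeletal muscle and 2.35 and -2.46 for mast cells.

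For some genes the 2 cuts differed. The lateral minus medial difference exceeded the oral minus nasal difference for 13 genes (0.116% of those tested, limma adjusted p under 0.05), and 0 genes were called in the opposite direction, where the lowest adjusted p was 0.0700. Before adjustment 365 genes had a p under 0.05. In that direction 8 were called without medial replicate 1 or medial replicate 2, 7 without lateral replicate 3 (with 1 in the opposite direction), 5 with the replicate number as a block (with 1 in the opposite direction) and 0 with the run as a covariate. Kera, which encodes the proteoglycan keratocan, had 8.72, 6.66 and 5.77 RPKM in lateral and 11.8, 6.99, 14.3 and 16.5 in nasal against 2.20, 0.782 and 1.58 in medial and 0.313, 1.18 and 1.10 in oral. Its 2 differences were 2.23 and -3.80 (contrast 6.03, SE 0.65, adjusted p = 0.00315). Gata2, a transcription factor of blood and mast cell lineages, showed the same lateral and nasal pattern, at 8.56 to 15.8 and 17.6 to 25.4 RPKM against 2.18 to 4.51 in medial and 1.94 to 5.64 in oral (contrast 4.63, adjusted p = 0.00315). The summed RPKM of the mast cell markers was 10.7 to 64.8 in lateral, 52.7 to 141 in nasal, 5.72 to 9.31 in medial and 10.8 to 41.5 in oral, with Fcer1a listed at 0 in all 13 libraries. The part of mast cells in this pattern was not tested. Adamts5, an aggrecan-cleaving protease, and Atp1b1, a subunit of the sodium pump, had contrasts of 2.97 and 3.21 (adjusted p = 0.00315 each). Gkn3, a gastrokine, was listed at 0 in all 3 medial libraries, with 5.22 to 7.34 RPKM in lateral, 6.17 to 11.5 in oral and 2.78 to 6.60 in nasal. It was called for both the contrast (5.08, adjusted p = 0.00171) and the overall difference, for which no fold is given.

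Oral and nasal libraries of the same run allowed the oral-nasal part to be read within a run. All 3 within-run differences had the direction of the comparison for 51 of 61 oral and lateral genes and 58 of 62 medial and nasal genes, against 9.16% and 10.3% of all genes tested. These are the values that helped to choose the genes, so the counts are a description. Genes without overlap have the same direction in every run by construction. For Tnn the within-run differences were -2.25, -2.70 and -3.24, for Runx2 -1.37, -1.90 and -1.74, and for Nmbr 1.78, 3.07 and 2.07, in run0297, run0175 and run0324. Osr1, at 0.11, 1.24 and 0.73, and Gja5, at -0.89, 2.31 and 0.26, were less even. A fit of the 7 oral and nasal libraries with the run as a block called 0 genes at an adjusted p under 0.05 (lowest 0.216), while 405 had an unadjusted p under 0.05. In the fit of 13 libraries, oral minus nasal alone gave 7 calls higher in oral and 15 in nasal, and 2 and 2 with the replicate number as a block.

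**Figure D4:**
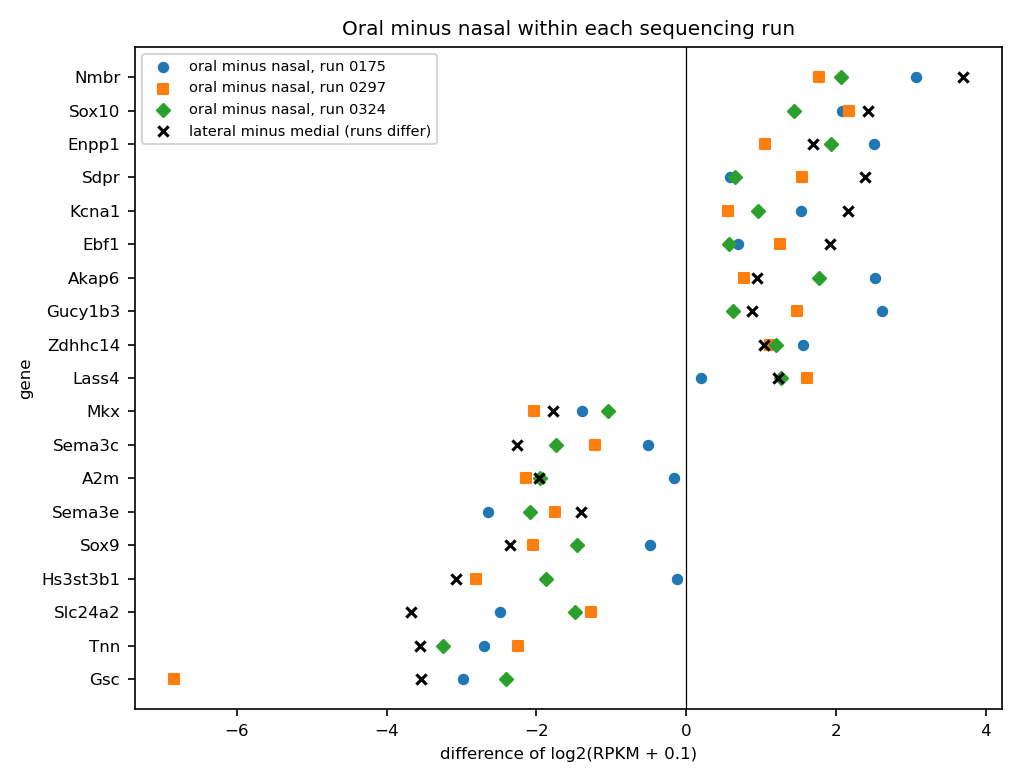
Oral minus nasal difference of log2(RPKM + 0.1) within each of 3 sequencing runs (coloured symbols) for 19 of the 20 genes with the largest non-overlapping differences, with lateral minus medial, whose libraries share no run, as a cross. All symbols of a gene lie on the same side of 0 because the genes were chosen for sides that do not overlap, so the sizes are what the plot adds, the farthest being Gsc in run0297 at -6.84, where the oral library is listed at 0.

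The posterior palate gave values from libraries that the anterior comparison did not use, although some shared its runs. Of the posterior libraries, medial replicates 2 and 3 were of run0366, like the anterior medial libraries, and lateral replicates 2 and 3 of run0391, like anterior lateral replicate 3, so run and compartment cannot be told apart for posterior lateral against medial either. The same contrast over the 12 posterior libraries called 5 of 11157 genes (0.0448%). Of the 61 oral and lateral genes of the anterior palate, 43 were tested there, 41 had the same sign and 26 an unadjusted p under 0.05 in that direction, against 2.64% of all posterior genes, with a median difference of 1.00. Of the 62 medial and nasal genes, 52 were tested, 35 had the same sign and 6 an unadjusted p under 0.05, against 1.22%, with a median of -0.18. Over all posterior genes tested, 54.6% had a positive and 45.4% a negative difference. No agreeing gene had an unadjusted p under 0.05 in the opposite direction. The difference between anterior and posterior was not tested. Enpp1 (2.52), Ebf1 (2.10), Aldh1a2 (1.84), Osr1 (1.81) and Tek (1.48) had posterior differences near or above their anterior ones, each with an unadjusted p under 0.05, and none was called after adjustment. Fgf10, short of the threshold in the anterior palate, was called in the posterior (2.47, limma adjusted p = 0.00414). All 13 endothelial markers were positive there as well, 8 with an unadjusted p under 0.05. On the medial and nasal side, Krt14 (-2.22) and Krt17 (-2.19) had values beyond the anterior ones, and Tnn (-1.33) and Gsc (-0.62) values nearer 0, all 4 with an unadjusted p under 0.05. Sox9 (-0.29), Runx2 (-0.48), Sema3e (-0.17), Sema3c (-0.17) and Unc5c (-0.01) had small posterior differences that did not pass.

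**Figure D5:**
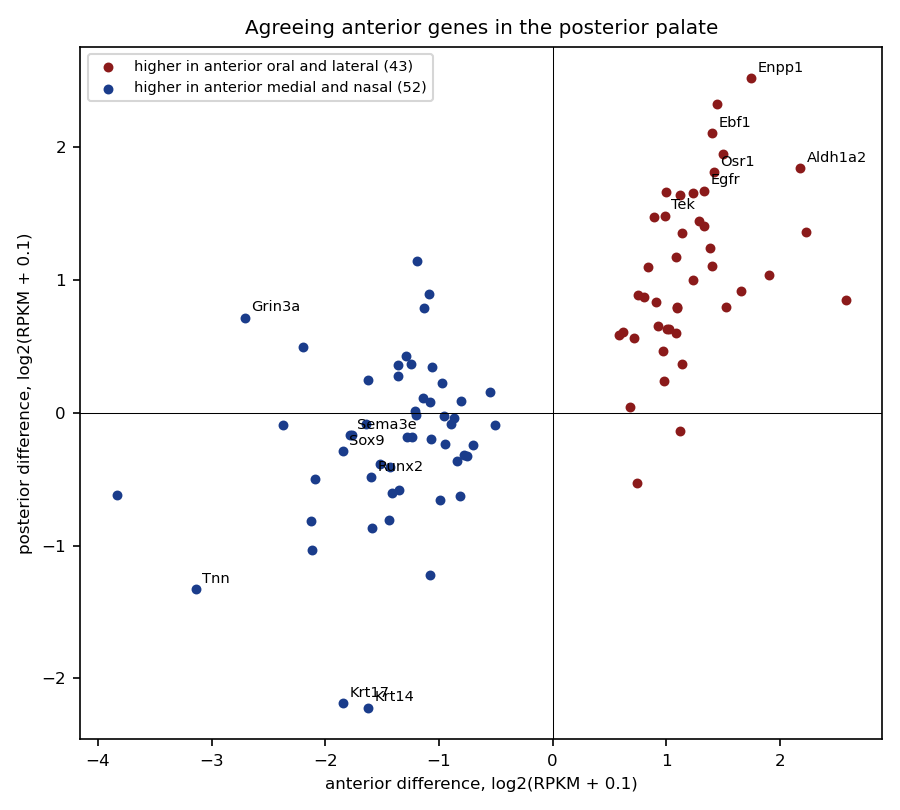
Agreeing anterior genes that were also tested in the posterior palate, with the anterior difference on the x axis and the posterior difference on the y axis, both oral and lateral minus medial and nasal on the log2(RPKM + 0.1) scale. Of 43 red genes (higher in anterior oral and lateral) 41 lie above 0, and of 52 blue genes (higher in anterior medial and nasal) 35 lie below 0. Over all posterior genes tested, 54.6% had a difference above 0 and 45.4% below.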

How the data were processed

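RNA from laser captured compartments of CD1 mouse palates was sequenced with single-end reads, and the authors deposited RPKM values for 37406 genes in 25 libraries, made with GeneSpring after removal of multi-aligned and duplicate reads. The submitters' processing notes name TopHat and mm9. Read counts were not used here. Depth was worked out from the ratios of low values between libraries and from GENCODE transcript lengths, so it is an estimate. Sample groups came from the labels, and runs from alignment names in the labels.

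Genes reaching 5 RPKM in 3 or more of the 13 anterior libraries were tested with limma 3.58.1 (R 4.3.3) on log2(RPKM + 0.1), with a mean per compartment and the contrast of oral and lateral against medial and nasal. Benjamini-Hochberg adjustment covered the 11235 genes tested. Fold changes on this scale understate those of low genes. The study describes the replicates as biological, and the labels do not tie libraries to embryos. On simulated data 54% of genes changed 2-fold, 90% changed 4-fold and 96.5% changed 8-fold were recovered (200 of 11235 genes changed). The simulated noise was independent between libraries, without run effects, and the change was equal in both cuts. Recovery under the runs and shared deviations of the real libraries was not measured. Figures and tables were made with Python 3.11.15, pandas 2.3.3, numpy 2.4.6 and matplotlib 3.10.9.

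The grouping of libraries and the gene lists were chosen with earlier results of these data known. Genes were named by rule: the 10 largest differences in each direction among called, agreeing genes without overlap (clone names, small RNAs and genes listed at 0 throughout a side left out), up to 4 called and agreeing members of each list by adjusted p, 12 genes of known palate biology, and the 5 genes in each direction with the smallest adjusted p for a difference between the cuts. The alternatives were pseudocounts of 1 and 0.01, other expression minimums, median centring, quantile normalization, a mean-variance trend, a 2-group fit, fits of all 25 libraries with and without the run, the replicate number as a block, averaged nasal replicates 1 and 2, and leaving out each library. Leaving out nasal replicates 1 and 2 together was chosen after seeing the data. Promoter windows were taken from RefSeq (GRCm38.p6), by gene ID. Some genes that met these rules are not reported here.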

Additional observations from a re-analysis of the deposited data

Results flagged for a closer look

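Of 171 groups of libraries examined, 10 had a library far from the others, where chance gives about 1 in 20. Tnn in oral replicate 1 (6.78 RPKM) lay above the other oral and lateral libraries, and Gli1 (5.46 RPKM) and Gja5 (11.6 RPKM) in the same library lay below them. Sox10 in oral replicate 3 was high at 19.1 RPKM. In nasal replicate 4, Krt14 (8.82 RPKM) and Wnt2 (5.35 RPKM) were low and Adamts5 (10.1 RPKM) was high among nasal libraries. Foxf2 in nasal replicate 1 was high at 80.2 RPKM. Among medial and nasal libraries, Zdhhc14 was low in nasal replicate 2 (1.85 RPKM) and Nmbr in medial replicate 1 (0.487 RPKM).

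The lateral minus medial difference exceeded the oral minus nasal difference, by the limma contrast, for Kera (6.03), Gkn3 (5.08), Gata2 (4.63), Atp1b1 (3.21) and Adamts5 (2.97).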

How the results depend on the processing

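Counts of called genes depended on the fit, and run could not be separated from lateral against medial. With 63 higher in oral and lateral and 62 in medial and nasal in the fit reported, no filter on low values gave 38 in the first direction, the 2-group fit of 6 against 7 libraries 24 and 41, all 25 libraries 19 and 36, and the run as a covariate 0 and 2. Without nasal replicates 1 and 2, the second was 38. Leaving out 1 library gave 25 (without lateral replicate 3) to 164 (without oral replicate 1) and 34 (without medial replicate 1) to 91. Agreeing genes, 61 and 62, followed: 35 in the first direction with no filter, 40 with at least 10 RPKM, then 24 and 41, 19 and 36, 0 and 2 in the same order as above, 38 without nasal replicates 1 and 2, and 24 to 157 and 34 to 89 leaving out 1 library. Of the 61 and 62, 22 and 32 were called in each of the 13 leave-one-out fits. Lateral replicates 1 and 2, medial replicate 2 and oral replicate 2 also moved these counts over 1.5 times when left out. Genes past the study's thresholds in both pairs, 21 and 34, were 47 and 63 with no filter, 10 and 19 with at least 10 RPKM, 9 and 11 with the run, 11 in the first direction with all 25 libraries, and 16 to 31 and 26 to 41 leaving out 1. The 13 genes that differed between the cuts, counted in either direction, were 7 with at least 10 RPKM, 2 with all 25 libraries, 0 with the run, 6 with the replicate block, 7 without nasal replicates 1 and 2, and 8 to 17 leaving out 1. The deviations of same-numbered libraries correlated at -0.153 to 0.233 over 18 pairs, 5 of them above 0.1. These included all 3 oral-nasal pairs (0.138, 0.214 and 0.233) and the medial-nasal pairs of replicate 1 (0.200) and replicate 3 (0.201). Nasal replicate 3 and oral replicate 2, of different number but the same run, correlated at 0.421. Whether the replicate number marks a pair was not tested. The replicate block gave 53 and 60 calls, 51 and 59 of them agreeing, and changed oral minus nasal calls from 7 and 15 to 2 and 2. The sign turned for genes not called in the report: Kera (0.83) and Gata2 (0.12) with the run, and Adamts5 with the replicate block (0.012) and without lateral replicate 2, medial replicate 1, nasal replicate 4 or oral replicate 1 (-0.131 to 0.0545 over all fits that left out 1 library). Of the 57 named genes, those not called in the report had no call to lose. All called ones but Tnn and Slc24a2, 42 genes, lost their call with the run as a covariate. In the 2-group fit 20 lost it, and with all 25 libraries 17. Each other alternative that kept every library changed the call of at most 10 of the named genes still tested. The causes were not tested. Counting error limits genes near 5 RPKM in oral replicate 1.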
